A study of Amphimedon queenslandica with 144 samples.

Results

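Transcript levels were compared between 9 swimming larvae of the demosponge Amphimedon queenslandica aged 10 h and 9 swimming larvae aged 3.5 h, each kept for 2 h with Mesophyllum sp., a crustose coralline alga. These 18 larvae, of 144 animals sequenced, were chosen by their labels alone. The older ones had met the alga 8 h after leaving the mother and the younger ones 1.5 h after, and all were still swimming when they were fixed. Exposure was therefore equally long at both ages. Age could not be told apart from having not settled, because larvae that had already attached were sorted into other groups and are left out here.

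Larvae of this sponge are brooded, leave the mother as ciliated swimmers that do not feed, and pass through a period in which they become competent to settle. A competent larva that meets a suitable cue attaches and metamorphoses into a juvenile. Coralline algae are widely known as settlement cues for reef invertebrates.

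The study measured polyadenylated RNA of single animals with CEL-Seq2, which tags and counts the 3' ends of transcripts. Swimming larvae given Mesophyllum sp. were taken at 3.5, 5, 7 and 10 h, with 9 larvae at each age and 36 in all. Another 36 larvae of the same 4 ages were given the articulated coralline alga Amphiroa fragilissima, and 36 were kept in filtered seawater without an alga. A further 9 larvae were taken at 0.5 h with no cue, and the 27 settled animals did not enter the fit. Each larva was held alone in its well and is 1 replicate. Whether larvae shared a mother is not given in the sources used here.

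Total counts of the 18 larvae ran from 541737 to 2719163, with a median of 1862376.5, and 13033 to 21221 features had a count. Means were 1896850 ± 643075 counts at 3.5 h and 1802740 ± 563161 at 10 h (SD, n = 9 each; 2-sided exact permutation test, p = 0.745). The lowest total of the whole series belonged to larva 4 of the 3.5 h group. The labels name 3 libraries, T, K and C. Of the 3.5 h larvae 3 were in T, 5 in K and 1 in C, whereas 4 of the 10 h larvae were in T and 5 in C, so that library was a covariate in the fits reported here unless stated. Features are Aqu2.1 gene models or transcripts with TCONS identifiers. None of these identifiers occurs in the reference gene table used here (0 of 47411 matched), so that features are given without names or roles. Levels are given as CPM, counts scaled for library size, and since 3' ends were counted they were not divided by transcript length.

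Between 3.5 and 10 h near Mesophyllum sp., many abundant transcripts fell and many of middling abundance rose. Of 13830 features tested, 1288 (9.31%) differed between 10 h and 3.5 h in edgeR's quasi-likelihood test at a Benjamini-Hochberg adjusted p below 0.05, in a fit to the swimming larvae of all cues and ages with library as a term. A fit to the 18 larvae alone called 368 features, and the wider fit without the library term called 1992. At 10 h 612 features (4.43%) were higher and 676 (4.89%) were lower. The median log2 fold change was 0.87 among those that rose and -0.70 among those that fell, against 0.02 over all features tested. A larva is a mixture of cell types, in which fewer cells of a type and less RNA per cell cannot be told apart. Changes were mostly moderate. At least a 2-fold rise was fitted for 249 features (1.8%) and a 2-fold fall for 205 (1.48%), at least 4-fold for 49 (0.354%) and 64 (0.463%), and at least 8-fold for 22 and 21. Every 10 h larva lay above every 3.5 h larva in 65 of the features that rose (67 of all tested, 0.484%), and below in 77 of those that fell (77 of all tested, 0.557%).

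**Figure D1:**
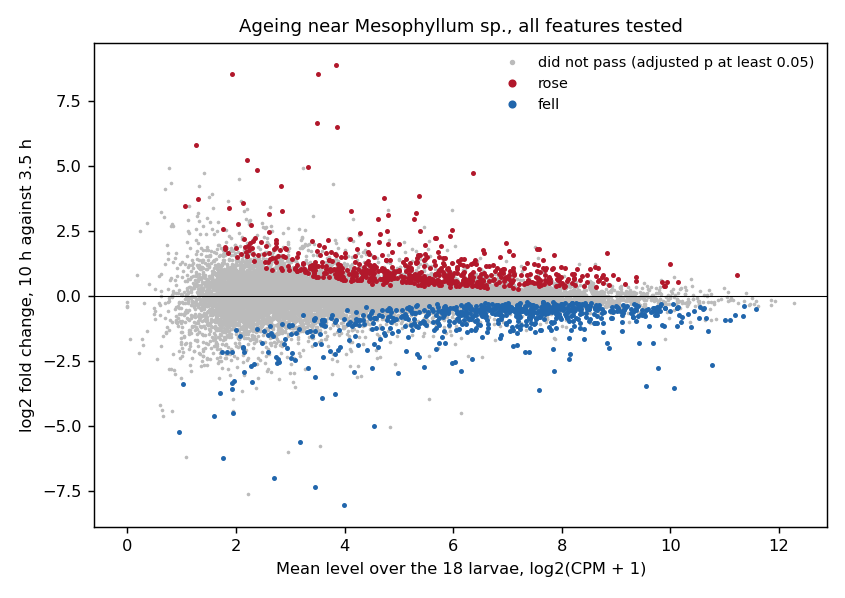
Change with age against level for the 13830 features tested in larvae near Mesophyllum sp. The horizontal axis is the mean level over the 18 larvae as log2(CPM + 1), the vertical axis is the log2 fold change of 10 h against 3.5 h, and coloured points are the 612 features that rose and the 676 that fell. Features that fell outnumber those that rose at the right of the plot, and the few changes beyond 8-fold lie mostly at low levels.

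The features that fell were the more abundant ones. Their median level over the 18 larvae was 123 CPM, against 40.1 CPM for the features that rose and 16.8 CPM for all features tested. Above a mean of 100 CPM, 513 of 2222 features (23.1%) were called, 374 of them lower and 139 higher at 10 h. Between 20 and 100 CPM the call share was 11.8% and the order was the opposite, with 290 higher and 199 lower. Between 5 and 20 CPM 5.23% were called (146 higher, 78 lower), and below 5 CPM 1.96% (37 higher, 25 lower). The median size of a called change shrank from 2.14 on the log2 scale below 5 CPM to 0.60 above 100 CPM, so that low features were called only for larger changes. Of 114 features above 1000 CPM, 26 fell and 3 rose. TCONS transcripts made up 339 of the tested features, and 14 of them (4.13%) were called, 6 higher and 8 lower.

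The features that fell took up 19.2% ± 0.7 of all counts in the youngest larvae, 17.8% ± 0.8 at 5 h, 14.9% ± 1.1 at 7 h and 12.3% ± 1.2 in the oldest (SD, n = 9 each). The features that rose went from 3.84% ± 0.24 through 4.47% ± 0.26 and 5.86% ± 0.45 to 7.23% ± 0.32. These shares describe features that were called on the youngest and oldest larvae, and only the values at 5 and 7 h were not used to choose them.

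The clearest fall was that of Aqu2.1.32109_001. Its level at 3.5 h was 882 CPM in the lowest larva, 1358 CPM in the median larva and 2263 CPM in the highest, and at 10 h it was 89.3, 119 and 142 CPM. The groups lay far apart, and the highest 10 h larva had less than the lowest 3.5 h larva by several-fold. The log2 fold change was -3.45 ± 0.15 (SE; edgeR quasi-likelihood, adjusted p = 4.27e-39). In between, the means were 898 ± 207 CPM at 5 h and 168 ± 33 CPM at 7 h (SD, n = 9 each), so that most of the loss fell between these ages.

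Aqu2.1.32921_001 had the largest fitted fall among features with a count in each of the 18 larvae. At 3.5 h the lowest, median and highest larvae had 255, 334 and 480 CPM, and at 10 h they had 13.4, 25.3 and 34.4 CPM. Again the 2 ages lay far apart. The log2 fold change was -3.63 ± 0.30 (edgeR, adjusted p = 3.19e-18). Means were 360 ± 87 CPM at 3.5 h, 220 ± 66 CPM at 5 h, 121 ± 51 CPM at 7 h and 23.3 ± 8.0 CPM at 10 h, so that the loss in CPM was spread over all steps, while on the log2 scale the step after 7 h was the largest.

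The rise with the smallest p was that of TCONS_00000913. Its levels were 30.8, 42.1 and 77.0 CPM in the lowest, median and highest larvae at 3.5 h, and 79.0, 124 and 145 CPM at 10 h. The groups did not overlap, although the highest young larva, the only one of library C, lay just under the lowest old one. The log2 fold change was 1.25 ± 0.14 (edgeR, adjusted p = 1.94e-11). Means of 71.8 ± 15.3 CPM at 5 h and 106 ± 25 CPM at 7 h placed it among features that climbed at each step, although no single step passed the test. Within library T the mean went from 38.7 ± 5.8 CPM in 3 larvae to 108 ± 26 CPM in 4. Within library C the change was smaller, from 77.0 CPM in 1 larva to 125 ± 12 CPM in 5 (log2 fold change 0.69).

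The largest fitted rise among features counted in each of the 18 larvae was that of Aqu2.1.13593_001, and it came from a few animals. At 3.5 h it stood at 0.463, 8.15 and 12.4 CPM in the lowest, median and highest larvae, and at 10 h at 4.79, 13.5 and 256 CPM. Only 3 of the 10 h larvae, with 129, 216 and 256 CPM, were well above the young ones, and the other 6 lay between 4.79 and 17.5 CPM. The medians differed by 1.65-fold, whereas the fitted log2 fold change was 3.86 ± 1.20 (edgeR, adjusted p = 0.0249). The call was lost without larva 10 of the 10 h group (log2 fold change 3.08, adjusted p = 0.0930) or without larva 3 (3.44, adjusted p = 0.0641). Single larvae above 250 CPM also occurred at 3.5 h in seawater (highest 273 CPM) and near A. fragilissima (296 CPM), where the fitted changes with age were -0.47 ± 1.01 and -2.65 ± 1.16 and did not pass the test. Among the changes of at least 4-fold, the medians of the 2 ages were at least 2-fold apart in the same direction for 41 of 49 features that rose and 55 of 64 that fell.

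The 4 ages show when these changes took place. The first step, from 3.5 to 5 h, gave 4 called features (0.0289%, with 867 features, 6.27%, at an unadjusted p below 0.05), the step from 5 to 7 h gave 108 (0.781%), and the step from 7 to 10 h gave 80 (0.578%). Of these 3 rose (0.0217%) and 1 fell (0.00723%) in the first step, 49 rose (0.354%) and 59 fell (0.427%) in the second, and 23 rose (0.166%) and 57 fell (0.412%) in the third. Single larvae bore on these counts: 0 features were called in the first step without larva 4 of 3.5 h, 67 in the second without larva 10 of 7 h, and 36 in the third without larva 7 of 10 h. The steps last 1.5, 2 and 3 h, and neighbouring steps share a group of larvae, so that their counts are not set against each other here. In a joint test of the 4 ages 1134 features (8.2%) differed. The mean of 7 and 10 h differed from the mean of 3.5 and 5 h in 1382 features (9.99%), 684 higher (4.95%) and 698 lower (5.05%), a comparison that draws on 36 larvae.

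**Figure D2:**
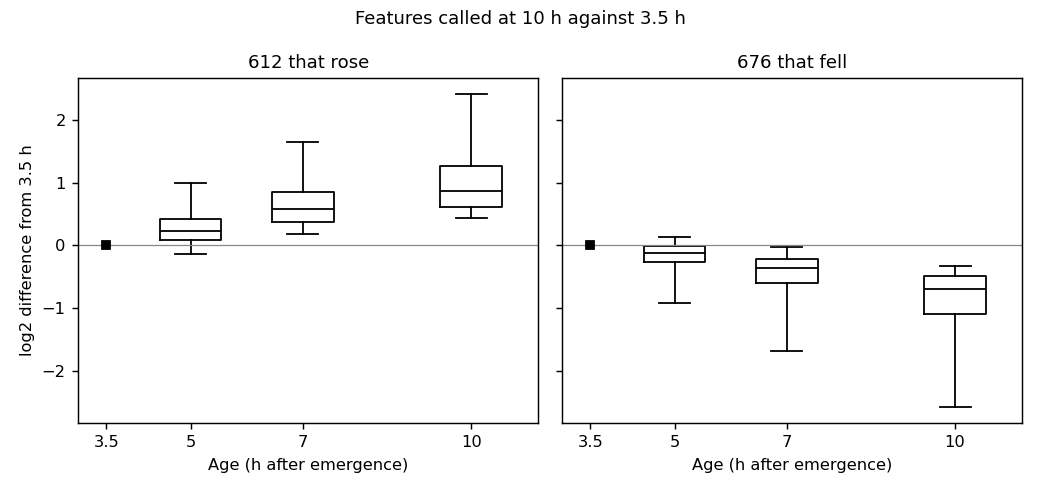
Log2 difference from the 3.5 h larvae at 5, 7 and 10 h for the 612 features that rose (left) and the 676 that fell (right) near Mesophyllum sp. Boxes span the quartiles with a line at the median, whiskers run from the 5th to the 95th percentile of the features, and the square marks 3.5 h. Medians are 0.23, 0.58 and 0.87 on the left and -0.13, -0.37 and -0.70 on the right.

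Among the features that rose between the end points, the median difference from 3.5 h was 0.23 at 5 h, 0.58 at 7 h and 0.87 at 10 h. Among those that fell it was -0.13, -0.37 and -0.70. The midpoint of the total change was passed by 5 h in 134 of the 612 risen features, between 5 and 7 h in 335, and after 7 h in 143. For the 676 fallen features the numbers were 79, 323 and 274. The midpoint was thus passed after 7 h in 40.5% of the fallen and 23.4% of the risen features, against 30.7% of all features tested. These shares are a description, since the features were chosen by their end points. Levels moved in 1 direction through all 4 ages in 415 of the risen features (67.8%) and 413 of the fallen ones (61.1%), and in 17.9% of all features tested.

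Features that differed by 5 h were few. Aqu2.1.26042_001 had 96.7, 140 and 174 CPM in the lowest, median and highest larvae at 3.5 h and 183, 272 and 317 CPM at 5 h, with no overlap (log2 fold change 0.93 ± 0.19; edgeR, adjusted p = 0.0347). It reached 339 ± 62 CPM at 7 h and was at 276 ± 64 CPM at 10 h. Aqu2.1.35755_001 was scarce, with a mean of 2.08 ± 0.93 CPM at 3.5 h and 8.79 ± 7.56 CPM at 5 h (log2 fold change 1.87 ± 0.40; edgeR, adjusted p = 0.0359), and it stayed near that level with 6.86 ± 2.62 CPM at 7 h and 8.99 ± 3.39 CPM at 10 h. The third feature that rose, Aqu2.1.24655_001, was named after its values were seen. It went from 26.4 ± 8.7 CPM to 55.8 ± 17.3 CPM (log2 fold change 1.14 ± 0.24; edgeR, adjusted p = 0.0359) and on to 77.3 ± 25.6 CPM at 10 h. In these 3 features the early gain was held to 10 h.

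The only feature that fell by 5 h, Aqu2.1.00064_001, rested on a single animal. At 3.5 h it had 0.926 CPM in the lowest larva, 45.7 CPM in the median larva and 968 CPM in larva 4, the one with the lowest total count, while the next highest had 103 CPM. At 5 h the values were 4.42, 14.6 and 66.1 CPM. The fitted log2 fold change was -2.75 ± 0.59 (edgeR, adjusted p = 0.0387). Without that larva it was -0.43 (adjusted p = 0.986), and none of the 4 features was called in this step (924 features at an unadjusted p below 0.05), with an adjusted p of 0.0598 for each of the 3 that rose.

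Between 5 and 7 h the falls with the smallest p were those of Aqu2.1.32109_001, described above, with a log2 fold change of -2.36 ± 0.14 in this step (edgeR, adjusted p = 1.39e-27), and of Aqu2.1.20588_001. The latter had 467, 886 and 1266 CPM in the lowest, median and highest larvae at 5 h and 171, 261 and 357 CPM at 7 h. No larva of 7 h reached the lowest of 5 h. Its log2 fold change in the step was -1.93 ± 0.18 (edgeR, adjusted p = 3.73e-14). It then stayed at 230 ± 51 CPM at 10 h, after a mean of 1515 ± 338 CPM at 3.5 h.

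Both features named for a rise in this step had 1 larva far above the rest, larva 10 of the 7 h group. Aqu2.1.18822_001 had 142, 182 and 221 CPM in the lowest, median and highest larvae at 5 h and 201, 263 and 685 CPM at 7 h (log2 fold change 0.82 ± 0.15; edgeR, adjusted p = 0.000156). Aqu2.1.26986_001 had 10.3 CPM in the median and 20.3 CPM in the highest larva at 5 h, and 22.3 and 462 CPM in those at 7 h (log2 fold change 2.11 ± 0.39; edgeR, adjusted p = 0.000369). The 2 ages overlapped in both features. Without that larva the rise of Aqu2.1.18822_001 was 0.62 (edgeR, adjusted p = 0.00651), whereas that of Aqu2.1.26986_001 was 0.69 and did not pass (adjusted p = 0.336). At 10 h their means were 265 ± 52 and 33.8 ± 11.9 CPM.

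**Figure D3:**
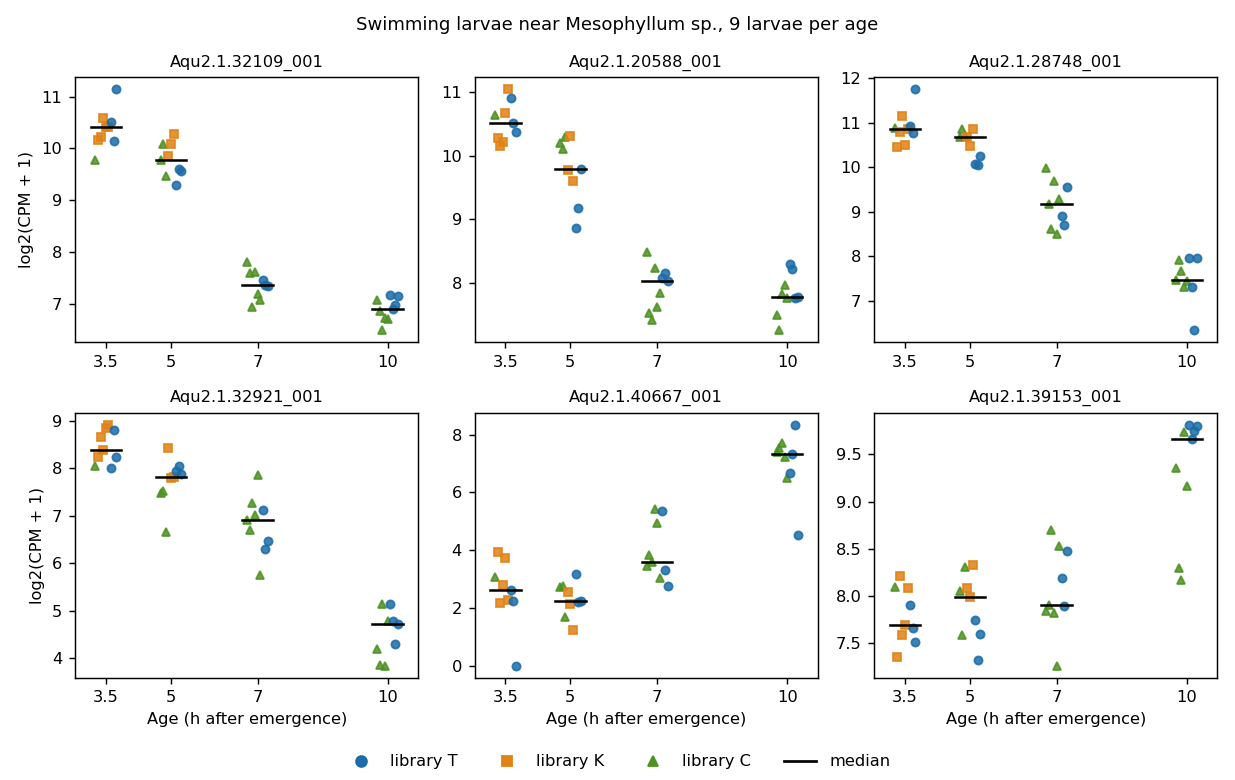
Levels of 6 features in single swimming larvae near Mesophyllum sp. at 3.5, 5, 7 and 10 h, as log2(CPM + 1), with 9 larvae at each age. Colour and shape mark the library and lines mark the median. Aqu2.1.32109_001 and Aqu2.1.20588_001 drop between 5 and 7 h, Aqu2.1.28748_001 and Aqu2.1.32921_001 go on falling to 10 h, and Aqu2.1.40667_001 and Aqu2.1.39153_001 are highest at 10 h.

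After 7 h, the falls with the smallest p were those of Aqu2.1.28748_001 and Aqu2.1.32921_001. Aqu2.1.28748_001 had 361, 581 and 1008 CPM in the lowest, median and highest larvae at 7 h and 80.7, 177 and 248 CPM at 10 h, without overlap (log2 fold change -1.64 ± 0.18; edgeR, adjusted p = 3.11e-11). Over the whole span it went from 1964 ± 608 CPM to 187 ± 54 CPM, a log2 fold change of -3.54 ± 0.19. Aqu2.1.32921_001 fell by 2.42 ± 0.28 on the log2 scale in this last step (edgeR, adjusted p = 7.35e-10), after 2 earlier steps of -0.59 ± 0.26 and -0.62 ± 0.27 that did not pass the test.

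Aqu2.1.39153_001 was flat until 7 h and then rose. Its means were 225 ± 47, 242 ± 57 and 279 ± 85 CPM at 3.5, 5 and 7 h, and 682 ± 243 CPM at 10 h. At 10 h the lowest, median and highest larvae had 286, 808 and 899 CPM, against 153, 238 and 415 CPM at 7 h. The ages overlapped only through 2 larvae of library C, which stayed near the younger level. The log2 fold change from 7 to 10 h was 1.26 ± 0.18 (edgeR, adjusted p = 1.8e-06).

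Aqu2.1.41009_001 went down and came back. Its means at 3.5 and 5 h were 2076 ± 331 and 1768 ± 553 CPM, that at 7 h was 398 ± 153 CPM, and that at 10 h was 1165 ± 332 CPM (SD, n = 9 each). All 7 h larvae, from 197 to 611 CPM, lay below all 5 h larvae, from 782 to 2530 CPM, and below all 10 h larvae, from 629 to 1522 CPM. The fall from 5 to 7 h was -2.17 ± 0.24 on the log2 scale (edgeR, adjusted p = 4.53e-11) and the rise from 7 to 10 h was 1.57 ± 0.23 (edgeR, adjusted p = 2.8e-06). The same low at 7 h was seen in other animals. In seawater the means were 2142 ± 535, 1714 ± 522, 558 ± 281 and 861 ± 272 CPM at the 4 ages, and near A. fragilissima they were 2095 ± 714, 1330 ± 400, 399 ± 150 and 738 ± 219 CPM. The comparison of 10 h with 3.5 h alone shows this feature as a fall of -0.85 ± 0.24 (edgeR, adjusted p = 0.00970).

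The comparison of the later with the earlier pair of ages named 2 features that rose. Aqu2.1.40667_001 came up from near the limit of counting. In 8 of the 9 larvae of 3.5 h it had a count, with 0, 5.07 and 14.3 CPM in the lowest, median and highest larvae, and at 10 h it had 22.0, 161 and 323 CPM. The groups did not overlap, and means of 4.26 ± 1.99 CPM at 5 h and 18.7 ± 14.6 CPM at 7 h placed most of the gain after 7 h. The log2 fold change from 3.5 to 10 h was 4.73 ± 0.56 (edgeR, adjusted p = 1.26e-10). In other animals the means likewise went from 6.25 ± 3.43 to 118 ± 70 CPM in seawater and from 6.39 ± 2.98 to 116 ± 55 CPM near A. fragilissima.

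Aqu2.1.40840_001, the other one, depended on library. Its means were 13.5 ± 6.6, 18.1 ± 6.2, 53.8 ± 25.8 and 68.3 ± 45.2 CPM at 3.5, 5, 7 and 10 h, and the later pair of ages was higher by 2.07 ± 0.23 on the log2 scale (edgeR, adjusted p = 8.31e-12). At 10 h the 4 larvae of library T had 26.4 ± 3.8 CPM and the 5 of library C had 102 ± 30 CPM, with no overlap between the libraries. Within T the level at 3.5 h was 7.76 ± 3.37 CPM (n = 3), and the single C larva of that age had 15.8 CPM. The 10 h means were thus higher in T and in C. Library K had 16.4 ± 6.6 CPM at 3.5 h (n = 5) and held no larva of 10 h.

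Library composition limits the whole comparison, because K held 5 of the young larvae and none of the old ones. Within library T alone, with 3 young and 4 old larvae, 351 features were called (179 higher, 172 lower) and 290 of them were among the 1288. Within library C alone, with 1 young larva assumed to vary like the other groups, 25 were called, 3 higher and 22 lower, and 19 were among the 1288. Of the 1288 features, 98.2% of those tested within T and 97.3% of those tested within C had the same sign there. Their median log2 fold changes were 0.90 for those that rose and -0.67 for those that fell within T, and 0.82 and -0.68 within C, against 0.08 and 0.11 over all features tested in T and in C. These larvae also helped to call the 1288, so that the signs and medians are a description only. Leaving out each of the 18 larvae in turn gave 1130 to 1257 called features. Of the 1288, 791 (358 higher, 433 lower) were called in each of the 18 fits, and the others were lost in some of them.

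Larvae kept in seawater give the changes between the same ages without an alga. The overlaps of called lists below depend on what each comparison could call, and are not shares of the ageing. In seawater 1615 features (11.7%) differed between 10 h and 3.5 h, 771 higher (5.57%) and 844 lower (6.1%). Of the 612 features that rose near Mesophyllum sp., 372 also rose in seawater, which is 60.8% of the former and 48.2% of the latter list. Of the 676 that fell, 414 also fell in seawater, 61.2% of the former and 49.1% of the latter, and no feature was called in opposite directions. Of the features called near Mesophyllum sp., 591 of those that rose (96.6%) and 651 of those that fell (96.3%) had the same sign in seawater. The 4 groups of larvae in these 2 comparisons share no animal, but they share the fit's dispersions and library term.

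A test of the difference in ageing between Mesophyllum sp. and seawater called no feature in edgeR (0 of 13830, 0%), with 684 features (4.95%) at an unadjusted p below 0.05 and a smallest adjusted p of 0.156. DESeq2 called 8 features, with 768 at an unadjusted p below 0.05. The precision of this test was limited: the median standard error of the difference was 0.48 on the log2 scale over all features and 0.27 among the 1288 called. Among these the median size of the difference was 0.21. Libraries limited the test as well. Seawater held 5 larvae of T and 4 of K at 3.5 h, 4 of T and 5 of K at 10 h, and 0 of C at both ages. At 10 h the 2 settings shared only library T, so that the test rested in part on the fitted library term. For Aqu2.1.32109_001 the fall was -3.45 ± 0.15 near Mesophyllum sp. and -3.80 ± 0.15 in seawater, and for Aqu2.1.32921_001 it was -3.63 ± 0.30 and -4.08 ± 0.30. Aqu2.1.28748_001 fell by 3.54 ± 0.19 and 3.04 ± 0.18, and TCONS_00000913 rose by 1.25 ± 0.14 and 0.91 ± 0.13. None of these 4 differences passed the test.

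Near the other alga, A. fragilissima, 2887 features (20.9%) differed between 10 h and 3.5 h, 1647 higher (11.9%) and 1240 lower (8.97%). They included 459 of the 612 features that rose near Mesophyllum sp. (75%, and 27.9% of the 1647) and 510 of the 676 that fell (75.4%, and 41.1% of the 1240), and 1 feature was called in opposite directions. In all 3 settings 703 features were called the same way, 330 higher and 373 lower. Near Mesophyllum sp. alone of the 3 settings 236 features were called, 111 higher and 125 lower. Of these 193 had the same sign in seawater, and 78 differed from seawater at an unadjusted p below 0.05 with none after adjustment, so that they are not shown to be particular to Mesophyllum sp.

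**Figure D4:**
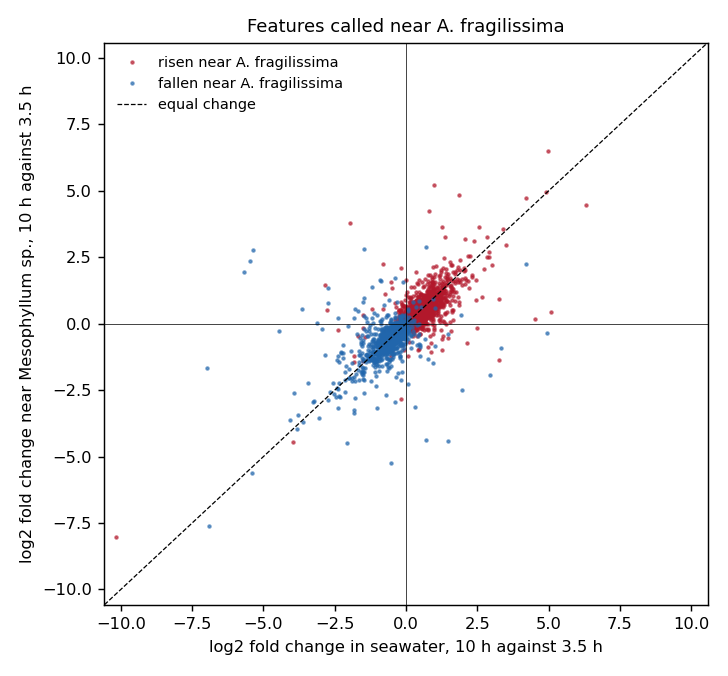
Change with age near Mesophyllum sp. (vertical axis) against change with age in seawater (horizontal axis), both as log2 fold change of 10 h against 3.5 h, for the 2887 features called in larvae near A. fragilissima, which share no animal with either axis. Points are coloured by their direction near A. fragilissima and the dashed line marks equal change. Most points lie in the lower left and upper right, along the line.

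The features called near A. fragilissima changed alike near Mesophyllum sp. and in seawater. They were called on animals outside both other settings, but in the fit that all swimming larvae shared. The 1647 that rose near A. fragilissima had a median log2 fold change of 0.43 near Mesophyllum sp. and 0.46 in seawater, and the 1240 that fell had -0.47 and -0.47, against 0.02 over all features in both. Their medians near A. fragilissima, 0.87 and -0.79, are those of the larvae that chose them. In a fit to the A. fragilissima larvae alone, 1238 features rose, with medians of 0.45 near Mesophyllum sp. and 0.47 in seawater. For the 1148 that fell in that fit the medians were -0.47 and -0.46. Near Mesophyllum sp. 459 of the 1647 rose and 1 fell, and 510 of the 1240 fell and none rose. Of the lists called in seawater, the 771 that rose had a median of 0.62 near Mesophyllum sp., with 372 higher and 0 lower, and the 844 that fell had -0.48, with 414 lower and 0 higher. Positive signs were found in 96.4% of the first list and negative ones in 92.2% of the second, whereas 51.5% of all features tested were positive.

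Features that had changed just after emergence tended to the opposite sign later. Between 0.5 h without a cue and 3.5 h in seawater 648 features rose (4.69%) and 596 fell (4.31%), 8.99% of those tested. Near Mesophyllum sp. the 648 had a median log2 fold change of -0.18 between 3.5 and 10 h, and 147 of them fell (22.7%, against 4.89% of all tested) while 27 rose (4.17%). The 596 had a median of 0.22, and 118 of them rose (19.8%, against 4.43% of all tested) while 26 fell (4.36%). Negative signs made up 68.4% of the first list and positive signs 68.5% of the second. Of the features named here, Aqu2.1.40667_001 fell by 2.14 ± 0.49 on the log2 scale between 0.5 and 3.5 h (edgeR, adjusted p = 0.00119) and rose later, and Aqu2.1.32921_001 rose by 1.16 ± 0.26 (edgeR, adjusted p = 0.000885) and fell later. Aqu2.1.26042_001 and Aqu2.1.24655_001 instead rose in both periods, by 1.23 ± 0.19 and 1.62 ± 0.25 in the first.

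A score gave each larva a single value, which was not corrected for library. It is the mean log2 CPM of 792 features that rose with age in a fit to the seawater larvae alone, minus that of 799 that fell. Near Mesophyllum sp. the score was -2.44, -2.14 and -1.89 in the lowest, median and highest larvae at 3.5 h, and -0.99, -0.84 and -0.47 at 10 h. Every old larva was above every young one. The means rose by 1.34 (2-sided exact permutation test within libraries, p = 0.00476, the smallest that its 210 arrangements allow; adjusted over 4 comparisons, 0.00635). Means at 5 and 7 h were -1.93 ± 0.17 and -1.17 ± 0.20 (SD, n = 9 each), and no 7 h larva was as low as any 5 h larva. In the test of 10 h against 3.5 h, the 5 young larvae of library K could not be exchanged, as no old larva was in K. The p-value of that test therefore rests on T and C. Within library T the mean went from -2.03 in 3 larvae to -0.89 in 4, and within C from -1.91 in 1 larva to -0.76 in 5. The 5 young larvae of K had the lowest mean of that age, -2.28. With the library effect removed, the rise from 3.5 to 10 h was 1.23 instead of 1.34.

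**Figure D5:**
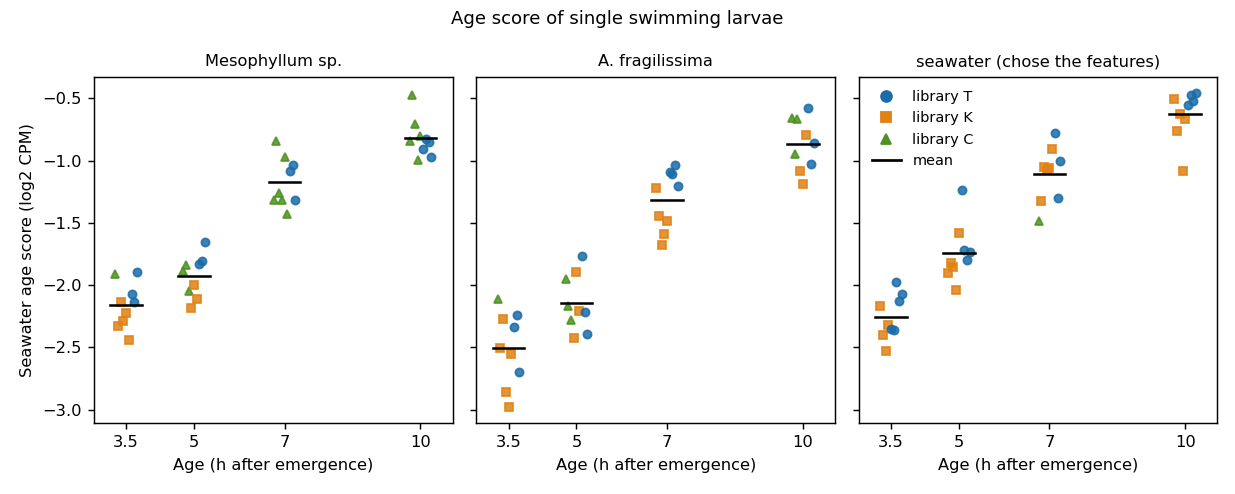
Seawater age score of each swimming larva at 3.5, 5, 7 and 10 h near Mesophyllum sp. (left), near A. fragilissima (middle) and in seawater (right), with 9 larvae at each age. The score is in log2 CPM, colour and shape mark the library and lines mark the mean; seawater larvae chose the features. In the left panel the 7 and 10 h larvae all lie above the 3.5 and 5 h larvae.

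On the same score the larvae near Mesophyllum sp. scored higher than those near A. fragilissima at 3.5 h and did not differ detectably from them at 10 h. At 3.5 h the means were -2.16 ± 0.18 and -2.51 ± 0.29, a difference of 0.35 (exact permutation within libraries, p = 0.00119, adjusted 0.00238; n = 9 each), although the groups overlapped. At 10 h they were -0.82 ± 0.16 and -0.87 ± 0.21, a difference of 0.05 (exact permutation, p = 0.679, adjusted 0.679). The 3 A. fragilissima larvae of library K could not be exchanged there, as no Mesophyllum sp. larva of 10 h was in K. The rise near A. fragilissima was 1.64 (exact permutation, p = 0.000223, adjusted 0.000893). Seawater larvae, which chose the features and are not tested, had means of -2.26, -1.74, -1.11 and -0.63 at 3.5, 5, 7 and 10 h.

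The test of the difference in ageing between the algae called 2 features (0.0145%), with 1236 (8.94%) at an unadjusted p below 0.05. In both features the difference, Mesophyllum sp. minus A. fragilissima, was positive. Neither was called for its own change with age near Mesophyllum sp. (edgeR, adjusted p = 0.0775 for Aqu2.1.28189_001 and 0.118 for Aqu2.1.40676_001). In the first of them the algae differed at 3.5 h and hardly at 10 h. Aqu2.1.28189_001 had 74.4, 138 and 161 CPM in the lowest, median and highest larvae near Mesophyllum sp. at 3.5 h, against 125, 267 and 328 CPM near A. fragilissima, and means of 84.3 ± 14.8 and 88.7 ± 12.3 CPM at 10 h. In seawater the means were 125 ± 25 and 96.9 ± 15.2 CPM. The difference in log2 fold change between the algae was 0.95 ± 0.19 (edgeR, adjusted p = 0.0173), from -0.37 ± 0.14 near Mesophyllum sp. and -1.33 ± 0.13 near A. fragilissima.

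Aqu2.1.40676_001 was scarce and uneven. Near A. fragilissima at 3.5 h its median was 0 CPM and its highest value 126 CPM, with a count in 4 of 9 larvae. Near Mesophyllum sp. it had a count in 4 of 9 larvae at 3.5 h, with at most 2.04 CPM, and in 7 of 9 at 10 h, with a median of 2.85 CPM and a highest value of 39.7 CPM. The fitted difference was 7.51 ± 1.55 (edgeR, adjusted p = 0.0320). Both calls depended on single animals. Without larva 7 of the 3.5 h A. fragilissima group no feature was called (1305 at an unadjusted p below 0.05), with adjusted p of 0.0623 for Aqu2.1.28189_001 and 0.272 for Aqu2.1.40676_001. Without larva 7 of the 10 h Mesophyllum sp. group the latter was lost (adjusted p = 0.0857), and without larva 4 of the 3.5 h Mesophyllum sp. group 7 features were called.

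Larvae of the same age varied about as much at 10 h as at the middle ages, and more at 3.5 h only with larva 4 of that age included. After removal of the library effect the median standard deviation of log2 CPM over the 13830 features was 0.65 in the youngest larvae, then 0.57, 0.56 and 0.58 at 5, 7 and 10 h. Without larva 4, the one with the lowest total, the 3.5 h value was 0.58. Among the 6379 features with a mean of at least 20 CPM the values were 0.41, 0.36, 0.37 and 0.39, and 0.37 at 3.5 h without that larva.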

How the data were processed

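The deposited table holds whole-number counts, made by the authors, for 144 single animals and 47411 features (44016 Aqu2.1 gene models and 3395 TCONS transcripts). Per the labels' series text, CEL-Seq2 reads were split by barcode, run through the CEL-Seq pipeline and counted on Aqu2.1 gene models. Which aligner and genome build they used is not given in the sources used here. The highest count was 8192, reached by 39 values, and 183 features exceeded 4096 in some animal, so that the largest counts and their changes may be compressed.

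Columns were matched to larvae by their titles, and no 2 columns were identical. Counts of the 117 swimming larvae were tested with edgeR 4.0.16 (R 4.3.3): its low-count filter by group kept 13830 features with 99.3% of counts, library sizes were scaled by trimmed means of M-values (factors 0.850 to 1.16), and a robust quasi-likelihood fit held 13 group means and library. Adjusted p-values (Benjamini-Hochberg, 2-sided, below 0.05) run over all features tested, and standard errors are the log2 fold change over the square root of F. CPM values use the scaled sizes and are not corrected for library. Score tests used log2 CPM (prior count 2) with larvae exchanged within libraries. DESeq2 1.42.0 and limma 3.58.1 served for alternatives, and Python 3.11.15 for the permutation tests and plots. The model was also run on simulated counts, which held no library effect, so that this run does not bear on the uneven libraries.

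The larvae were picked by their labels and not by their levels, but they, the lists and the comparisons were settled with earlier results of these data known. At most 2 features that rose and 2 that fell are named per comparison: for 10 h against 3.5 h the smallest p and the largest change with a count in all 18 larvae, and otherwise the 2 smallest p. No sequences are shown, since none was at hand for these identifiers. Alternatives changed the scaling, filter, tool, larvae in the fit, library term, depth term, identifier ceiling and replicate block, and left out single larvae.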

Additional observations from a re-analysis of the deposited data

Results flagged for a closer look

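Most groups checked here were the same larvae measured for different features, and those features were named for their changes. The number of groups with a larva far apart is therefore not set against chance. By Dixon's 95% criterion (gap to the nearest neighbour against the range), 8 of 61 groups of 9 larvae held a larva far apart. Larva 4 at 3.5 h near Mesophyllum sp., which had the lowest total count, was the highest in 3 of them, with 2263 CPM of Aqu2.1.32109_001, 3437 CPM of Aqu2.1.28748_001 and 968 CPM of Aqu2.1.00064_001. Larva 10 at 7 h stood apart with 685 CPM of Aqu2.1.18822_001 and 462 CPM of Aqu2.1.26986_001. A single larva was also far above the rest for Aqu2.1.00064_001 at 5 h (66.1 CPM) and for Aqu2.1.40676_001 at 10 h (39.7 CPM). In seawater at 10 h, 1 larva had a lower age score than the other 8, at -1.08. By a test of the difference itself, the change with age differed between the 2 algae for Aqu2.1.28189_001 and Aqu2.1.40676_001. Mesophyllum sp. minus A. fragilissima, these differences were 0.95 and 7.51 on the log2 scale. Both calls were lost with limma-voom, and also without larva 7 of the 3.5 h A. fragilissima group.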

How the results depend on the processing

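Ageing from 3.5 to 10 h kept its direction under every alternative run, in at least 97.3% of those of the 1288 features that each tested, but the number called moved with the larvae and terms in the fit: 368 with the 18 larvae alone, 1992 without the library term, 841 in libraries T and C, 351 within T and 25 within C, where 12% rose against 47.5% in the full fit. Leaving out single larvae gave 1130 to 1257. For 5 against 3.5 h (4 features) the count was 1 without the filter, 21 with DESeq2, 7 without library, 1 within T, 2 with a depth term and 0 without larva 4 of 3.5 h, a larva chosen after seeing the data, as were the next ones. For 7 against 5 h (108) it was 52, 185 and 209 without filter, with DESeq2 and without library, 50 with all 144 animals, 25 with the 36 Mesophyllum sp. larvae, 1 within T and 67 without larva 10 of 7 h. For 10 against 7 h (80) it was 39 without filter, 123 with DESeq2, 35 with all 144 animals, 3 within T, 57 without larva 10 of 7 h and 36 without larva 7 of 10 h. The joint test of 4 ages (1134) gave 649 with the 36 larvae, 1925 without library and 197 within T, and the later against the earlier pair of ages (1382) gave 833, 2515 and 244. The difference from seawater (0) had 8 calls with DESeq2. The difference from A. fragilissima (2) had 4 without filter, 1 with the stricter filter, 40 with DESeq2, 0 with limma-voom, 1 without library, 0 within T, 1 with counts corrected for shared identifiers, and from 0 to 7 without single larvae. The score difference between the algae at 10 h was -0.019 after removal of the library effect, against 0.05. The cause of these differences was not tested, beyond fewer larvae in some fits. The labels do not say that replicate numbers pair larvae. Over 7 shared numbers, deviations at 3.5 and 10 h correlated from -0.0669 to 0.215, 3 of them over 0.1, and 3 larvae correlated best with their own number, so that the numbers were not taken as pairs. With the replicate block 817 features were called for ageing, 0, 48 and 746 for the first step, the second step and the joint test, 823 for the later against the earlier ages, and 0 for the difference between the algae. Of features under 5 CPM 1.96% were called; the part of depth in this was not tested. Named features kept their sign in each alternative, and their adjusted p was above 0.05 in 50 of 399 refits.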

Other observations

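The 9 larvae of 0.5 h, taken without a cue, had a seawater age score of -1.74 ± 0.15 (SD, n = 9), with a lowest value of -1.98 and a highest of -1.55. Their mean lay above those of the 3.5 h larvae near Mesophyllum sp. (-2.16), near A. fragilissima (-2.51) and in seawater (-2.26), and near those of 5 h in seawater (-1.74). The score therefore did not order the youngest larvae by age. Of the features named above, Aqu2.1.32109_001 stood at 1306 ± 179 CPM at 0.5 h, close to its level at 3.5 h, while Aqu2.1.32921_001 stood at 150 ± 57 CPM and Aqu2.1.26042_001 at 65.8 ± 17.5 CPM, both below their levels at 3.5 h near Mesophyllum sp.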
